A study of Homo sapiens with 36 samples.

Results

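The 41 genes described here encode lysosomal hydrolases, proteins that assist them in the lumen, lysosomal membrane proteins, subunits of the lysosomal proton pump, autophagy factors and the transcription factors TFEB and TFE3. They were chosen by name from among the 20802 genes of the panel, with earlier results of these data known. All 41 were present: 20 hydrolases, 3 lumenal cofactors, 7 membrane proteins, 5 proton pump genes, 4 autophagy factors and 2 transcription factors. RNA was measured in LoVo cells, an established line from a human colorectal cancer, after 24 hours with a MEK inhibitor or with DMSO, the solvent. MEK phosphorylates and thereby activates ERK at the end of the RAS, RAF and MAPK cascade, and the inhibitor is labelled as a numbered compound of a published series. It was given at 0.03, 0.1, 0.3, 1, 3, 10, 30, 100, 300 and 1000 nM with 3 libraries per dose, and 6 libraries received DMSO, numbered 1 to 3 on each of a pair of sequencing chips. DMSO libraries with the same number on both chips resembled each other more than other DMSO pairs did, with a chi-square per degree of freedom of their counts of 1.53 to 1.58, against 1.60 to 2.70. The 6 may therefore be 3 samples read on both chips, which the labels do not state, and the DMSO spread may be that of 3 samples. Each gene was read as a short amplicon (Ion AmpliSeq), so its count also depends on how well that amplicon amplifies, and levels are not compared between genes. The cells are 1 line in culture, and the labels do not tell separate cultures from repeat wells, so p-values rest on a spread among libraries that may be technical in part.

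Lysosomes are acidic compartments in which hydrolases break down proteins, glycans, lipids and nucleic acids, and a proton pump, the V-ATPase, keeps them acidic. Autophagy delivers parts of the cytoplasm to them inside double-membraned vesicles. Promoters of many of these genes carry an E-box, CACGTG, often as part of a longer motif bound by TFEB, TFE3 and related factors, whose activity depends largely on phosphorylation and on location in the cell, which RNA counts do not measure.

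Libraries held between 2972186 and 4751839 counts. Levels are counts scaled to library size (CPM), and changes are log2 fold changes with their standard error (SE), set against the average of the DMSO groups of both chips. A gene was called, and is said to have risen or fallen, when edgeR's quasi-likelihood test against the DMSO libraries of each chip gave the same sign and the larger p, adjusted by Benjamini-Hochberg over 12102 tested genes, was below 0.05. DUSP6, a phosphatase switched on by ERK, checks the treatment: its log2 fold change was -0.83 at 1 nM, -2.25 at 10 nM and -5.06 at 1000 nM, and it was called lower at each. Among libraries of the same group, replicate 1 of 1 nM and replicates 1 and 3 of 1000 nM stood furthest from the others, with an SD of the log2 deviation over 8476 genes of 0.418, 0.400 and 0.362, against 0.175 to 0.312 in the remaining libraries. The colon epithelial markers EPCAM, CDH1, KRT8, KRT18, KRT19, KRT20, CDX1, CDX2, VIL1 and LGALS4 were detected, 10 of 10, with a summed level of 4236 to 4670 CPM at 1000 nM and 3770 to 3968 CPM in DMSO. Of these markers 5 were called higher at 1000 nM, beside 21.2% of all tested genes. Their log2 fold changes were 1.19 for KRT19, 1.04 for CDX2, 0.79 for CDH1, 0.79 for VIL1 and 2.29 for CDX1. CDX1 had under 2.53 CPM in DMSO, so it could enter the test only through treated libraries, and without it 4 of 9 were called higher. KRT8 and KRT18 were called lower, at -0.45 and -0.48, beside 20.7% of all tested genes. The part of these marker shifts in the results was not tested.

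In LoVo cells treated with the inhibitor at 10 nM or more, 20 to 26 of the 39 tested genes were called higher, depending on the dose. Over all tested genes the share was 13.5% to 22.1% at these doses. At 1 nM 6 of the 39 were already called higher, beside 3.95% of all tested genes. At 1000 nM, 25 of the 39 genes that could be tested had risen and 0 had fallen, while 21.2% of all tested genes were called higher and 20.7% lower. Because the genes were chosen with earlier results known, the difference between these shares was not tested. The largest changes were in the protease CTSS, with a log2 fold change of 2.78 (SE 0.346), the hexosaminidase subunit HEXA (1.90, SE 0.366), the sialidase NEU1 (1.47, SE 0.109) and the growth factor precursor and lysosomal cofactor GRN (1.46, SE 0.107). At 10 nM 20 genes were already higher. In bulk RNA, a change in how many cells carry a transcript and a change in its level per cell cannot be told apart. The transcription factors TFEB and TFE3 and the membrane protein LAMP1 were not called at any dose.

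By dose, 0 genes were called higher at 0.03, 0.1 and 0.3 nM, 6 and 8 at 1 and 3 nM, 20 and 22 at 10 and 30 nM, and 24, 26 and 25 at 100, 300 and 1000 nM. Over all tested genes the share called higher was 0%, 0%, 0%, 3.95%, 6.66%, 13.5%, 18.0%, 18.4%, 22.1% and 21.2% in the same order. None of the 39 was called lower at any of the 10 doses by edgeR's quasi-likelihood test, while the share of all tested genes called lower was 0%, 0%, 0%, 4.02%, 6.68%, 13.3%, 18.0%, 18.8%, 23.0% and 20.7%. Their median log2 fold change was 0.02, 0.18, 0.35, 0.57 and 0.55 at 0.03, 1, 10, 100 and 1000 nM, and the median over all tested genes was at most 0.01 at these doses. At the lowest 3 doses, 0, 0 and 1 of the 39 genes had an unadjusted p below 0.05. The counts at the low end depend on single libraries and on how DMSO was used: at 1 nM 6 genes became 2 (CTSA and GRN) without replicate 2 of 1 nM, 3 (CTSA, GALNS and GRN) without replicate 2 of DMSO chip 1, and 13 when the mean of both DMSO groups was tested.

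**Figure D1:**
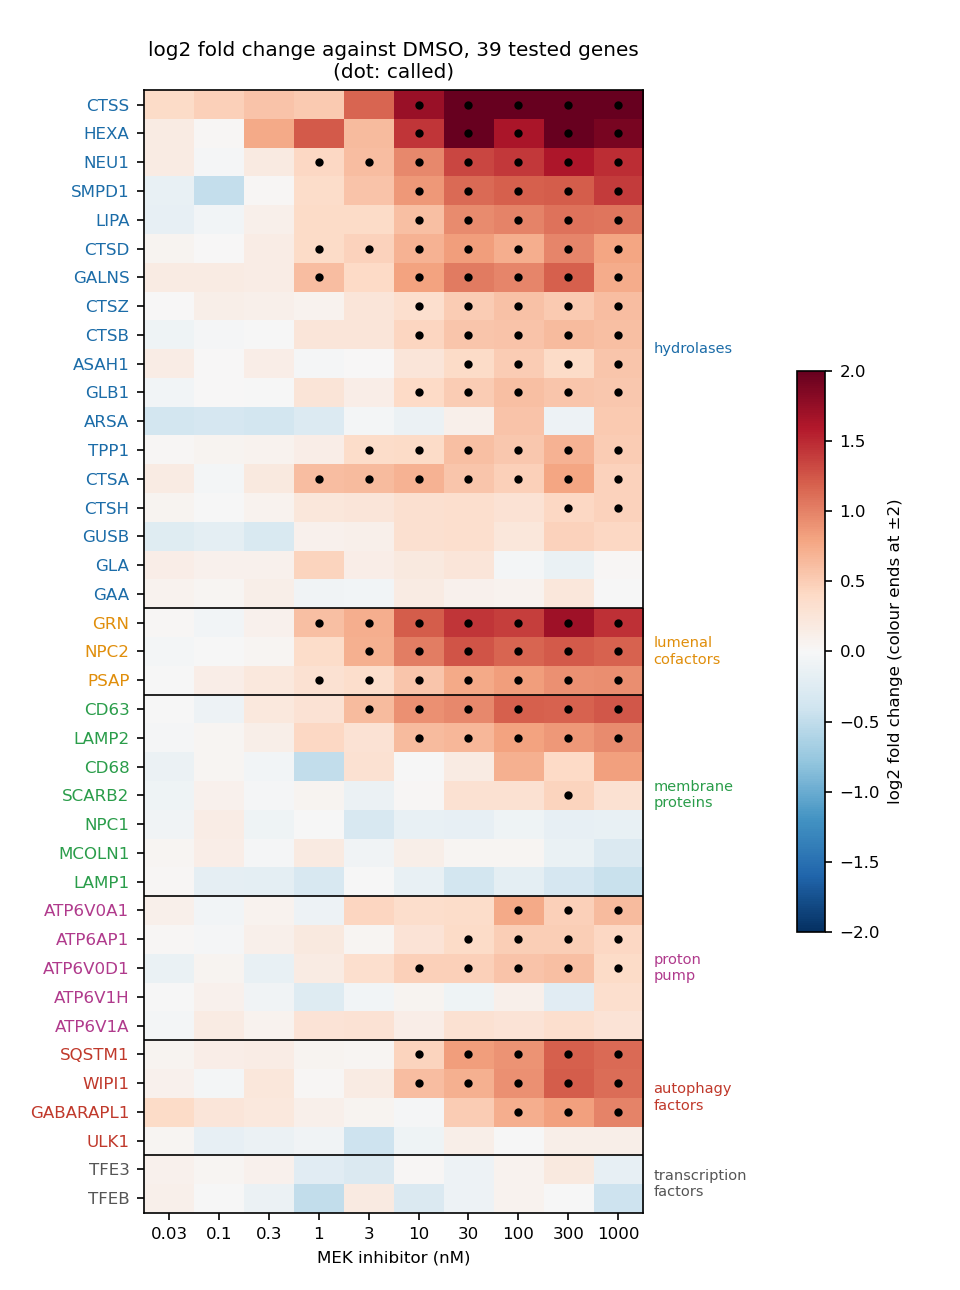
Log2 fold change against DMSO (colour, ending at 2 in either direction) for the 39 tested genes (rows, grouped by class and ordered by their change at 1000 nM) at the 10 doses in nM (columns); a dot marks a called gene. Dots begin at 1 nM with 6 genes, reach 20 genes at 10 nM and 25 at 1000 nM, and are absent from 13 rows, those of ARSA, GUSB, GLA, GAA, CD68, NPC1, MCOLN1, LAMP1, ATP6V1H, ATP6V1A, ULK1, TFE3 and TFEB.

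Genes in which every treated library lay above every DMSO library were also counted. Over the 10 doses, low to high, there were 1, 1, 3, 12, 17, 24, 24, 26, 26 and 25 such genes of 39. The shares over all tested genes were 1.24%, 1.82%, 4.20%, 10.6%, 14.0%, 19.7%, 22.3%, 23.3%, 26.1% and 22.9%. Of the 25 called genes, 23 had no overlap between the 1000 nM and DMSO libraries, the exceptions being ATP6V0A1 and ATP6V0D1. CD68 and SCARB2 had no overlap and were not called. In 10 of the 25 the log2 fold change was at least 1. CTSF and MAN2B1 were too low to test, with 18 and 131 counts over all 36 libraries and at most 3 and 10 in any library. Of the 39 tested genes, 38 passed the filter of 2.53 CPM in every DMSO library, and CTSS passed it in 3 of 6.

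Promoter sequences from RefSeq (GRCh38.p14, 250 bases before to 50 bases after the start) were found for 32 of the 41 genes. The 7-letter motif TCACGTG, read on both strands, which contains the 6-letter E-box CACGTG, was present in 9 of these 32 genes, 28.1%, against 4.49% of 27305 genes of the table and 7.26% of the 8730 tested genes with a promoter there. The E-box, with or without the leading T, was in 10 of 32 (31.2%), against 8.77% of all genes and 12.8% of tested genes. Within the 32, TCACGTG was found in 5 of 19 genes called higher at 1000 nM, in 3 of 11 tested and not called, and in CTSF, which was not tested. A match describes the letters only and is not evidence of binding. The stretches below show the motif in 4 genes that rose and 3 that were not called, 5′ to 3′ on the gene's strand, with matches to TCACGTG on either strand in capitals.
NEU1: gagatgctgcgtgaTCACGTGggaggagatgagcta
CTSA: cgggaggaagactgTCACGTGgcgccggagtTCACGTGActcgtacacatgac
CTSD: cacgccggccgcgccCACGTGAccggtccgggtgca
ATP6V0D1: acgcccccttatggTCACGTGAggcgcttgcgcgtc
GAA: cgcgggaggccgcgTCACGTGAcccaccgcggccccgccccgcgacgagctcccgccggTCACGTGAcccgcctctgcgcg
MCOLN1: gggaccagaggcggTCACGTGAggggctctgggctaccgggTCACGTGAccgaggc
LAMP1: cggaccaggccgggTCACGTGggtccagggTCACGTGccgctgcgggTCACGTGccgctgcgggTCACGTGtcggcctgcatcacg

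These stretches lie just upstream of the RefSeq start in GRCh38.p14: NEU1 at chr6:31862927-31862962 on the minus strand, CTSA at chr20:45891278-45891330 on the plus strand, CTSD at chr11:1763954-1763989 on the minus strand and ATP6V0D1 at chr16:67481196-67481231 on the minus strand. The genes that were not called lie on the plus strand, GAA at chr17:80101490-80101570, MCOLN1 at chr19:7522568-7522623 and LAMP1 at chr13:113297032-113297117. LAMP1 holds 5 matches before its start, of which 4 are shown, and was not called at any dose. GRN, NPC2 and SQSTM1, which rose, had no match within the windows searched, and sequence outside the windows was not searched. Whether the motif is linked to the changes was not tested.

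At 1000 nM 14 of the 18 tested hydrolases had risen and 0 had fallen, with a median log2 fold change of 0.57. Of all tested genes 21.2% were called higher and 20.7% lower. All 7 tested proteases, 3 of 6 glycosidases, 1 of 2 sulfatases and all 3 lipid hydrolases were among the hydrolases that rose.

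CTSS, cathepsin S, a protease that also trims the invariant chain of MHC class II, had 13.2, 15.2 and 23.9 CPM in the 1000 nM libraries, against a lowest, median and highest value of 1.65, 2.61 and 3.41 CPM in the 6 DMSO libraries. All 3 treated libraries stood above all 6 DMSO libraries, on 47 to 99 counts per library at 1000 nM and 6 to 11 in DMSO. The log2 fold change was 2.78 (SE 0.346, edgeR adjusted p = 2.48e-08). CTSS was called from 10 nM upward, where it had 8.45, 6.42 and 10.6 CPM.

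NEU1, neuraminidase 1, which removes sialic acid from glycans and whose absence causes sialidosis, had 200.1, 187 and 162 CPM at 1000 nM, against 55.6, 66.7 and 71.9 CPM as the lowest, median and highest DMSO values. The groups did not overlap, and the log2 fold change was 1.47 (SE 0.109, edgeR adjusted p = 1.29e-15). The 3 libraries had 78.9, 95.3 and 87.8 CPM at 1 nM, 134, 122 and 127 CPM at 10 nM, and 173, 188 and 164 CPM at 100 nM, with no overlap between these doses.

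HEXA, the alpha subunit of beta-hexosaminidase, deficient in Tay-Sachs disease, had 38, 22.2 and 11.6 CPM at 1000 nM, against 4.61, 6.31 and 7.83 CPM as the lowest, median and highest DMSO values. Its replicates were uneven, with replicate 1 high and replicate 3 low, but all 3 lay above the DMSO range. Its log2 fold change was 1.90 (SE 0.366, edgeR adjusted p = 0.000136).

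SMPD1, the acid sphingomyelinase that is missing in Niemann-Pick disease types A and B, had 24.2, 23.4 and 18.1 CPM at 1000 nM, against 6.28, 8.31 and 10.6 CPM as the lowest, median and highest DMSO values. The groups did not overlap, and the log2 fold change was 1.41 (SE 0.213, edgeR adjusted p = 4.76e-07). LIPA, the acid lipase that releases cholesterol from its esters, and ASAH1, the acid ceramidase, also rose, by 1.06 (SE 0.121) and 0.55 (SE 0.145) on the log2 scale.

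Among the other proteases CTSD, an aspartic protease, rose by 0.79, CTSZ by 0.62, CTSB by 0.59, TPP1, a tripeptidyl peptidase, by 0.51, and CTSA and CTSH by 0.46 each, all as log2 fold changes at 1000 nM. CTSA, which also protects NEU1 and beta-galactosidase in a complex, had 94.6, 73.1 and 63.9 CPM at 1000 nM, against 48.2, 56.7 and 62.2 CPM as the lowest, median and highest DMSO values. Its edgeR adjusted p of 0.0199 became 0.304 without replicate 1 of 1000 nM, and 0.0563 and 0.0777 without replicates 1 and 2 of DMSO chip 1.

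GALNS, a sulfatase that acts on keratan sulfate, rose by 0.74 on the log2 scale and GLB1, beta-galactosidase, by 0.54. The other sulfatase, ARSA, had a log2 fold change of 0.53 (SE 0.251) and was not called (edgeR adjusted p = 0.192), and neither was GUSB, beta-glucuronidase, at 0.41 (SE 0.153, edgeR adjusted p = 0.147). ARSA passed the threshold without replicate 1 of 1000 nM (log2 fold change 0.77, edgeR adjusted p = 0.0361), and GUSB without replicate 3 of 1000 nM (0.52, edgeR adjusted p = 0.0498). GUSB has pseudogene copies whose reads an amplicon may not tell apart. GLA, alpha-galactosidase A, and GAA, acid alpha-glucosidase, which are deficient in Fabry and Pompe disease, had log2 fold changes of 0.02 (SE 0.191) and -0.01 (SE 0.173), and neither was called at any dose.

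The 3 lumenal cofactors, proteins without enzyme activity of their own, all rose at every dose from 3 nM upward, with a median log2 fold change of 0.70 at 3 nM, 1.02 at 10 nM and 1.17 at 1000 nM. Of all tested genes 6.66% were called higher at 3 nM and 21.2% at 1000 nM. GRN, progranulin, a secreted precursor that is cut into granulins in lysosomes, had 487, 393 and 328 CPM at 1000 nM, against 140.3, 146 and 154 CPM as the lowest, median and highest DMSO values. All 3 treated libraries were above the highest DMSO value (log2 fold change 1.46, SE 0.107, edgeR adjusted p = 4.24e-16). Separation was already complete at 1 nM, where GRN had 226, 223 and 222 CPM and a log2 fold change of 0.61.

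NPC2, which carries cholesterol within the lysosome, had 204, 196 and 176 CPM at 1000 nM, against 74.6, 82.2 and 96.3 CPM as the lowest, median and highest DMSO values. The groups did not overlap, and the log2 fold change was 1.17 (SE 0.124, edgeR adjusted p = 1.66e-10). PSAP, the precursor of the saposins that present sphingolipids to their hydrolases, averaged 766 ± 84.4 CPM at 1000 nM (SD, n = 3) and 403 ± 11.6 CPM in DMSO (SD, n = 3 pair means), a log2 fold change of 0.93 (SE 0.0881).

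Of the 7 lysosomal membrane proteins 2 rose at 1000 nM, CD63 and LAMP2, a share near the 21.2% of all tested genes called higher, and the median log2 fold change was 0.31. CD63, a tetraspanin of late endosomes and lysosomes, had 644, 592 and 601 CPM at 1000 nM, against 234, 261 and 274 CPM as the lowest, median and highest DMSO values. LAMP2, a heavily glycosylated protein of the limiting membrane, had 165, 121 and 129.6 CPM at 1000 nM, against 59.4, 74.2 and 80.0 CPM. Neither gene's treated libraries overlapped with DMSO, and the log2 fold changes were 1.25 (SE 0.108, edgeR adjusted p = 9.36e-14) for CD63 and 0.94 (SE 0.116, edgeR adjusted p = 3.31e-08) for LAMP2.

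LAMP1, the related glycoprotein that makes up much of the same membrane, had 12.4, 20.8 and 22.4 CPM at 1000 nM, against 21.0, 25.4 and 28.7 CPM as the lowest, median and highest DMSO values. Its libraries overlapped with DMSO, and the log2 fold change of -0.44 (SE 0.223) was not called (edgeR adjusted p = 0.121). The cholesterol transporter NPC1 and the calcium channel MCOLN1 had log2 fold changes of -0.14 (SE 0.128) and -0.29 (SE 0.202). MCOLN1 had 17.2, 10.5 and 10.1 CPM at 1000 nM, so replicate 1, which stands apart over all genes, is also its highest, and without it the log2 fold change was -0.58 (edgeR adjusted p = 0.033), a call.

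SCARB2, the receptor that brings beta-glucocerebrosidase to lysosomes, was called at 300 nM with a log2 fold change of 0.44, and at 1000 nM it had 0.31 (SE 0.133, edgeR adjusted p = 0.0587). CD68, a glycoprotein best known as a macrophage marker, had 11.8, 14.3 and 19.5 CPM at 1000 nM, against 6.30, 8.68 and 11.4 CPM in DMSO. Although the libraries did not overlap, the log2 fold change of 0.82 (SE 0.266) was not called (edgeR adjusted p = 0.0565). Without replicate 1 of 1000 nM it was 0.97 (edgeR adjusted p = 0.0275). Macrophage markers were counted beside CD68 and CTSS. Their summed level over 10 genes was 63.8 to 77.1 CPM at 1000 nM and 8.6 to 16.0 CPM in DMSO, of which LYZ, also made by epithelia, held 794 of 810 counts at 1000 nM and 227 of 244 in DMSO. LYZ was called higher at 1000 nM, with a log2 fold change of 2.71 (SE 0.192). CD163 and TYROBP were at 0 counts in both groups, as were PTPRC and FCER1G, and CSF1R had 0 counts at 1000 nM and 2 in DMSO. CD14 had 11 counts at 1000 nM and 14 in DMSO, ITGAM 2 and 1, MSR1 2 and 0, and AIF1 1 and 0. These counts are over 3 libraries at 1000 nM and 6 in DMSO. Of the 10 fibroblast markers COL1A2 and FAP were at 0, and the summed level was 42.5 to 43.6 CPM at 1000 nM and 3.3 to 5.01 CPM in DMSO. Most of it came from COL1A1, COL3A1 and LUM, called higher with log2 fold changes of 2.71, 3.71 and 4.07. All 3 were under 2.53 CPM in DMSO, so they could enter the test only through treated libraries. DCN had 6 counts at 1000 nM and 0 in DMSO, PDGFRA 6 and 1, PDGFRB 14 and 6, and THY1 and POSTN 0 in both. The part of these markers in the results was not tested. The 5 endothelial markers summed to 0.241 to 1.46 CPM at 1000 nM and 0.341 to 1.75 CPM in DMSO.

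**Figure D2:**
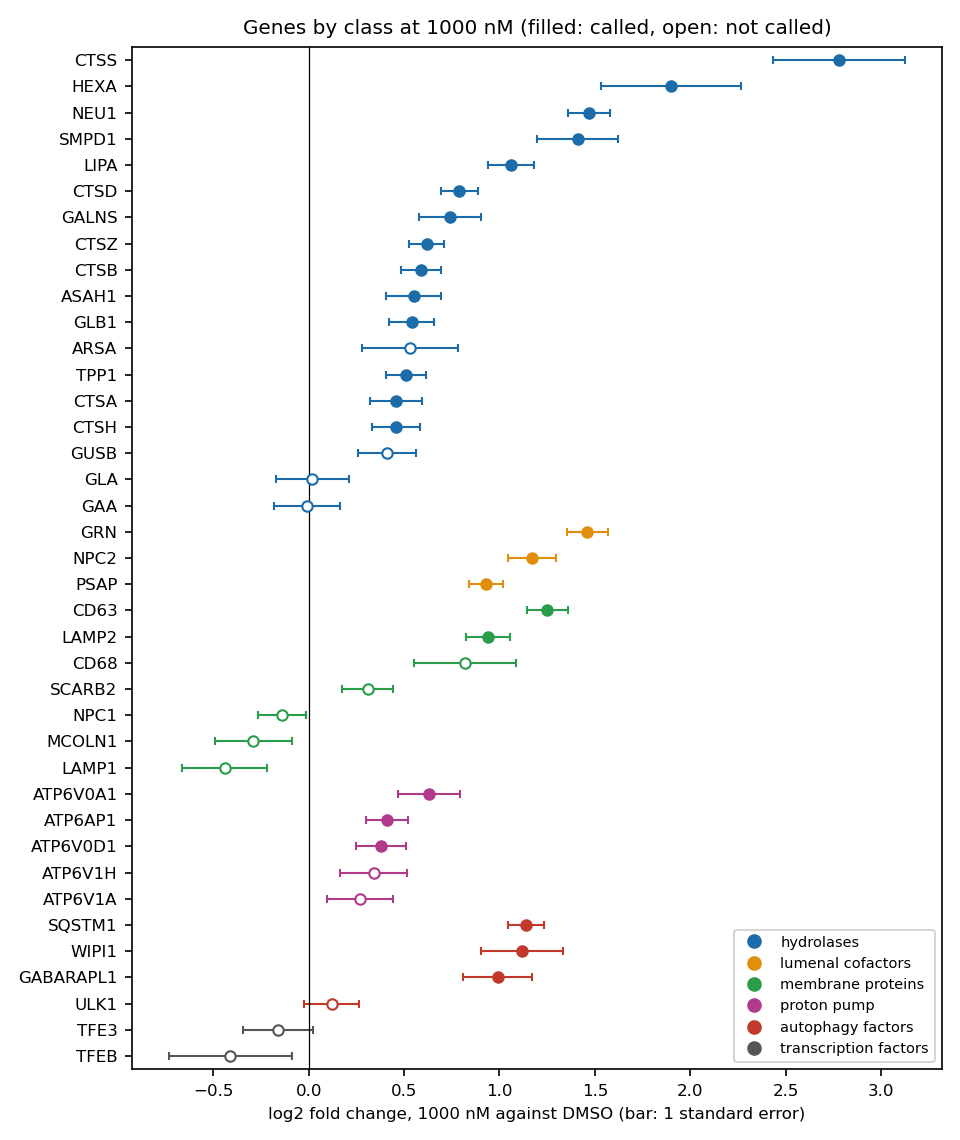
Log2 fold change at 1000 nM against DMSO (x axis) with 1 standard error (bars) for the 39 tested genes by class (colour); filled points are called genes. The 3 lumenal cofactors lie between 0.93 and 1.46, the hydrolases between -0.01 and 2.78, and the membrane proteins reach from -0.44 for LAMP1 to 1.25 for CD63.

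Of the 5 genes of the proton pump, the V-ATPase, 3 rose at 1000 nM, beside 21.2% of all tested genes. The median log2 fold change of the class was 0.38. ATP6AP1, an accessory subunit, had 114, 94.5 and 96.0 CPM at 1000 nM, against 69.6, 78.1 and 81.1 CPM as the lowest, median and highest DMSO values, without overlap (log2 fold change 0.41, SE 0.110, edgeR adjusted p = 0.00279). ATP6V0A1, an a subunit of the membrane sector, had 39.7, 57.6 and 80.8 CPM at 1000 nM, against 33.0, 39.2 and 42.7 CPM, so that replicate 1 lay inside the DMSO range. Its log2 fold change was 0.63 (SE 0.162, edgeR adjusted p = 0.00213), but without replicate 3 of 1000 nM it was 0.33 and not called (edgeR adjusted p = 0.153).

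ATP6V0D1, which joins the membrane sector to the stalk, had 63.9, 87.8 and 56.5 CPM at 1000 nM, against 47.7, 52.5 and 60.6 CPM in DMSO, with replicate 3 inside the DMSO range. Its log2 fold change of 0.38 (SE 0.131, edgeR adjusted p = 0.0185) was 0.17 and not called without replicate 2 of 1000 nM (edgeR adjusted p = 0.391), and leaving out replicate 2 or 3 of DMSO chip 1 or replicate 3 of DMSO chip 2 also ended the call (edgeR adjusted p = 0.116, 0.0675 and 0.0876). At 10, 30, 100 and 300 nM ATP6V0D1 was called as well, with log2 fold changes of 0.48, 0.47, 0.56 and 0.60. The catalytic subunit ATP6V1A and the regulatory subunit ATP6V1H had log2 fold changes of 0.27 (SE 0.173) and 0.34 (SE 0.174) at 1000 nM and were not called at any dose.

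Among the 4 autophagy factors, 3 rose at 1000 nM, SQSTM1, WIPI1 and GABARAPL1, beside 21.2% of all tested genes. The median log2 fold change was 1.06. SQSTM1, the receptor p62 that ties ubiquitinated cargo to autophagosomes and is itself degraded with it, had 1072, 837 and 749 CPM at 1000 nM, against 365, 395 and 455 CPM as the lowest, median and highest DMSO values. The groups did not overlap, and the log2 fold change was 1.14 (SE 0.0957, edgeR adjusted p = 8.37e-14). Up to 3 nM SQSTM1 stayed at 411 to 448 CPM in all 15 treated libraries, within the DMSO range. At 10 nM it had 549, 539.7 and 552 CPM, and at 300 nM 931, 845 and 981 CPM.

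WIPI1, which binds a phosphoinositide on the forming autophagosome, had 25.6, 23.7 and 18.8 CPM at 1000 nM, against 8.79, 10.8 and 11.8 CPM as the lowest, median and highest DMSO values, without overlap (log2 fold change 1.12, SE 0.215, edgeR adjusted p = 2.1e-05). GABARAPL1, of the ATG8 family that is attached to autophagosome membranes, had 25.6, 33.3 and 27.7 CPM at 1000 nM, against 12.1, 14.9 and 16.4 CPM, also without overlap (log2 fold change 0.99, SE 0.181, edgeR adjusted p = 4.87e-05). At 10 nM GABARAPL1 was still at 12.5, 14.2 and 16.4 CPM and its log2 fold change was -0.02. GABARAPL1 has a close copy, GABARAPL3, whose reads its amplicon may share. ULK1, the kinase that starts autophagy, had 64.4, 62.3 and 56.2 CPM at 1000 nM, against 53.1, 55.3 and 62.5 CPM in DMSO, and a log2 fold change of 0.12 (SE 0.144, edgeR adjusted p = 0.746).

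The transcription factor TFEB had 3.94, 5.85 and 7.72 CPM at 1000 nM, against 4.43, 8.03 and 12.4 CPM as the lowest, median and highest DMSO values, on 14 to 32 counts per library at 1000 nM and 13 to 49 in DMSO. TFE3 had 34.3, 27.2 and 25.1 CPM at 1000 nM, against 24.3, 32.9 and 36.7 CPM in DMSO. Both overlapped with DMSO, with log2 fold changes of -0.41 (SE 0.322, edgeR adjusted p = 0.926) for TFEB and -0.16 (SE 0.182, edgeR adjusted p = 0.773) for TFE3. Against the DMSO libraries of chip 1 alone TFEB was called lower (log2 fold change -0.76, edgeR adjusted p = 0.025).

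**Figure D3:**
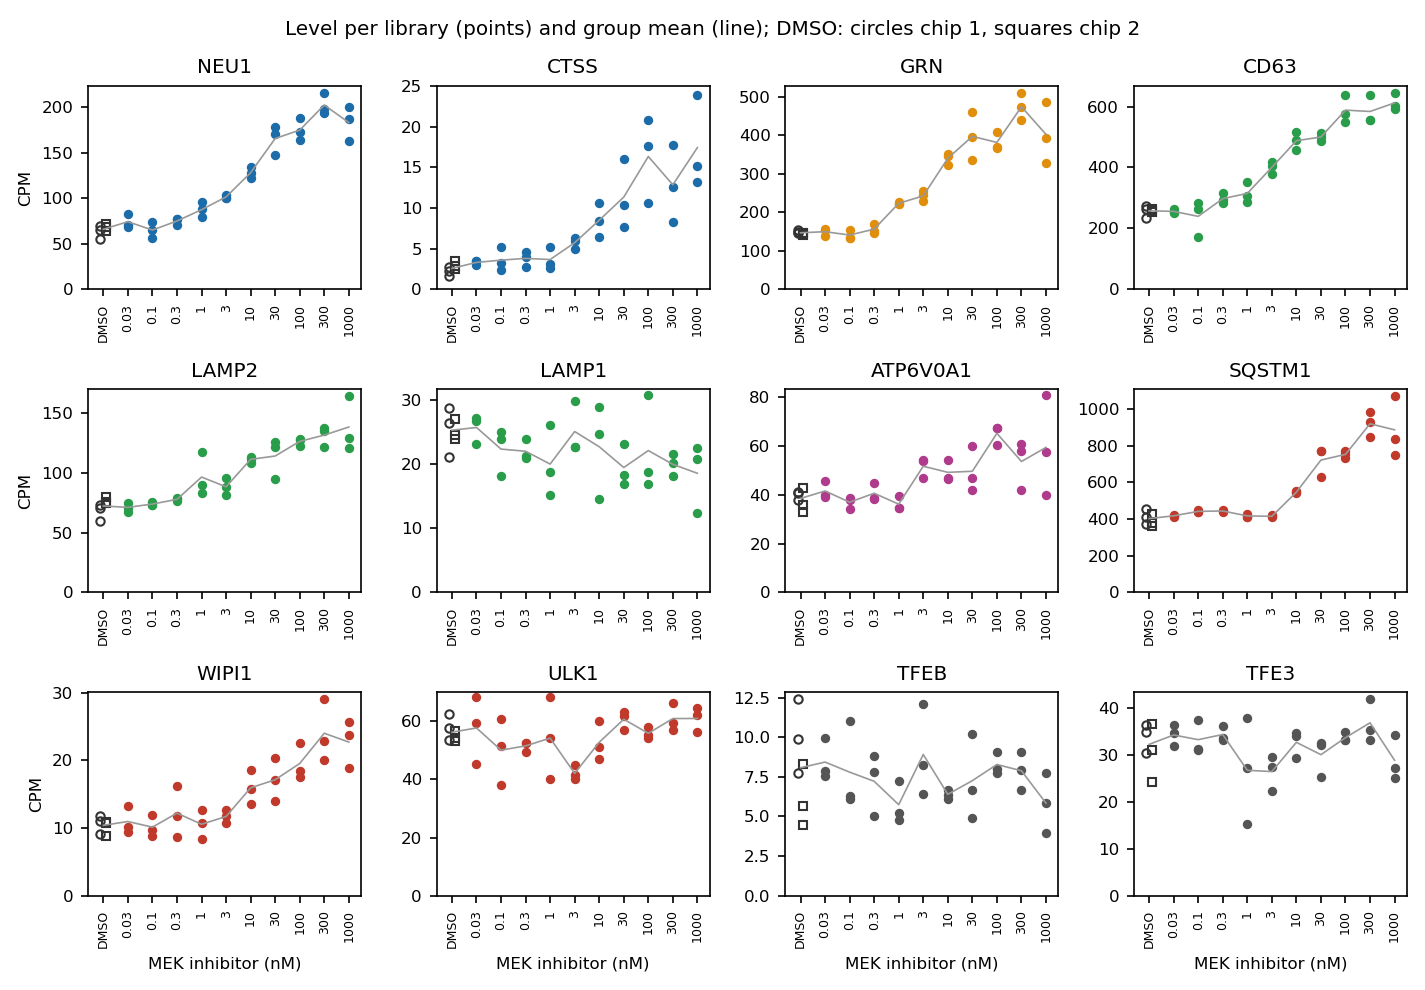
Level in CPM (y axis, from 0) of 12 genes in every library (points) with the group mean (line), for DMSO (circles chip 1, squares chip 2) and the 10 doses in nM (x axis). NEU1 and GRN were called from 1 nM and CD63 from 3 nM, SQSTM1 stays at 411 to 448 CPM up to 3 nM and reaches 749 to 1072 CPM at 1000 nM, and LAMP1, ULK1, TFEB and TFE3 overlap with DMSO at 1000 nM.

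Calls began at different doses. The 6 genes first called at 1 nM were the hydrolases CTSA, CTSD, NEU1 and GALNS and the cofactors GRN and PSAP. At 3 nM TPP1, NPC2 and CD63 were added, and at 10 nM 11 genes, CTSB, CTSS, CTSZ, HEXA, GLB1, SMPD1, LIPA, LAMP2, ATP6V0D1, SQSTM1 and WIPI1. ASAH1 and ATP6AP1 followed at 30 nM, ATP6V0A1 and GABARAPL1 at 100 nM, and CTSH and SCARB2 at 300 nM. Altogether 26 of the 39 genes were called at some dose, and 24 of them were called at every dose above their lowest, the exceptions being GALNS at 3 nM (log2 fold change 0.40) and SCARB2 at 1000 nM. None of the 4 autophagy factors was called at 1 or 3 nM, where 3.95% and 6.66% of all tested genes were called higher. A count of 0 among 4 genes is near these shares. At 1 and 3 nM, 4 and 4 of 18 hydrolases and 2 and 3 of 3 cofactors were called higher. The counts were 0 and 1 of 7 membrane proteins and 0 and 0 of 5 pump genes. The difference between the classes in onset was not tested.

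**Figure D4:**
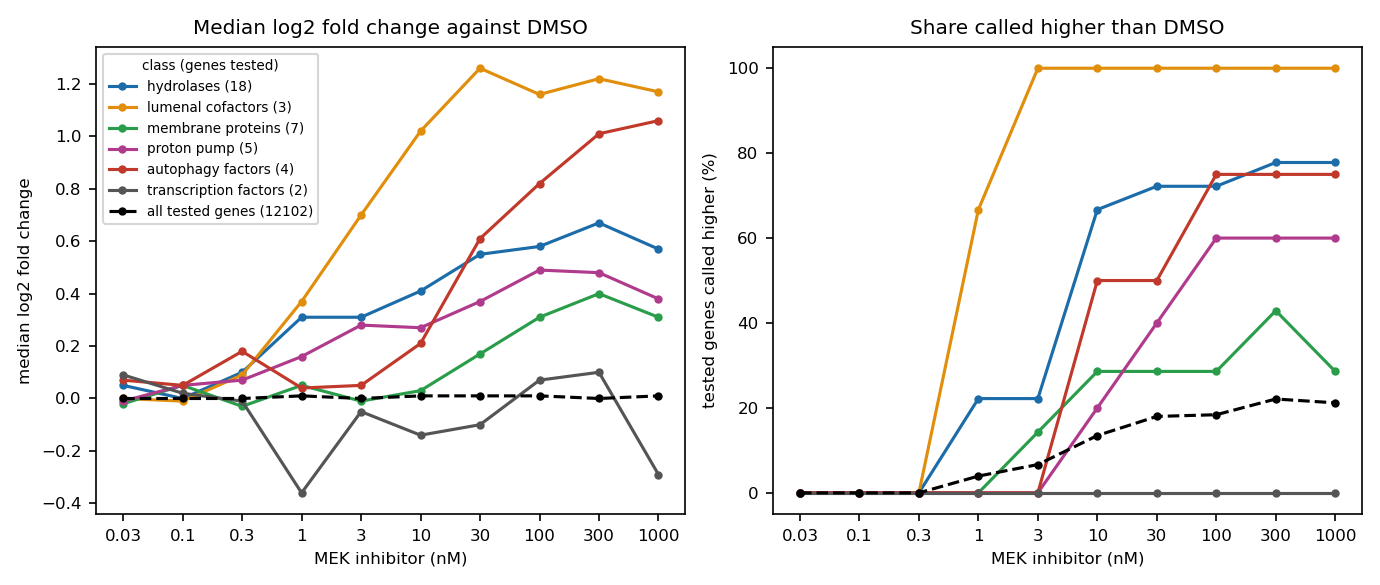
Left, the median log2 fold change against DMSO of each class, and right, the percentage of its tested genes called higher, at the 10 doses in nM (x axis); the dashed line is all 12102 tested genes. At 1000 nM the medians are 1.17 for lumenal cofactors, 1.06 for autophagy factors, 0.57 for hydrolases, 0.38 for the proton pump, 0.31 for membrane proteins and -0.29 for transcription factors.

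Steps between doses were tested in the same model. At 1 against 0.1 nM 11 of 39 genes were called higher and 0 lower, beside 8.16% and 6.87% of all tested genes. At 10 against 1 nM the counts were 9 and 0, beside 7.06% and 8.36%, and at 100 against 10 nM 6 and 0, beside 1.78% and 3.35%. At 1000 against 100 nM no gene was called in either direction by edgeR (of all tested genes, 0% higher and 0.00826% lower), 1 had an unadjusted p below 0.05, and the log2 fold changes lay between -0.49 (TFEB, SE 0.295) and 0.27 (HEXA, SE 0.299). In 38 of the 39 genes the 95% interval of this last step lay within a log2 fold change of 1 in either direction. That bound is larger than the median log2 fold change of these genes at 1000 nM, 0.55, so it does not exclude smaller steps. The genes called higher at 100 against 10 nM were CTSS, NEU1, LIPA, PSAP, SQSTM1 and GABARAPL1, of which GABARAPL1 was not called against DMSO below 100 nM. SQSTM1 and GABARAPL1 had log2 fold changes of 0.46 (SE 0.0942, edgeR adjusted p = 0.00102) and 0.75 (SE 0.182, edgeR adjusted p = 0.00737) in that step. Only NEU1 and SQSTM1 kept their call in it without replicate 1 of 10 nM, and likewise without replicate 2 of 100 nM. The step of 1 against 0.1 nM had 5 genes without replicate 2 of 0.1 nM and 7 without replicate 2 of 1 nM. Between the DMSO libraries of chip 2 and chip 1 no gene was called by edgeR, and 1 had an unadjusted p below 0.05.

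Half-maximal doses came from a curve with 1 plateau fitted to log2 CPM in all libraries. Of 25 genes fitted, 17 were well fitted, with an SE of the log10 dose below 0.2, and their median was 3.77 nM. Among the well fitted genes the lowest were 1.75 nM for CTSD (95% interval 0.993 to 3.07), 2.16 nM for NPC2 (1.35 to 3.46) and 2.25 nM for GALNS (0.938 to 5.38). The highest were 18.9 nM for SQSTM1 (12 to 30), 14.3 nM for WIPI1 (6.08 to 33.8) and 6.82 nM for CTSZ (3.57 to 13.0). The interval of SQSTM1 lay wholly above those of 14 of the other 16 well fitted genes, and that of WIPI1 above 7 of them. With the DMSO libraries of the same number averaged, these counts were 13 and 6, an alternative chosen after seeing the data. The other 8 genes were not well fitted, and they ranged from 0.372 nM for CTSA (0.107 to 1.29) to 71.1 nM for the autophagy factor GABARAPL1 (20.9 to 241.5). Among them the hydrolase ASAH1 had 15.9 nM (4.21 to 60.0) and the pump gene ATP6AP1 8.95 nM (3.03 to 26.5). Both intervals are wide, and that of ATP6AP1 includes the median of 3.77 nM. Whether late values were particular to autophagy factors was not tested. For comparison, DUSP6, which fell, had a half-maximal dose of 9.6 nM (7.62 to 12.1), or 7.75 nM with a prior count of 5. The intervals come from the scatter of the libraries around 1 curve shape.

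**Figure D5:**
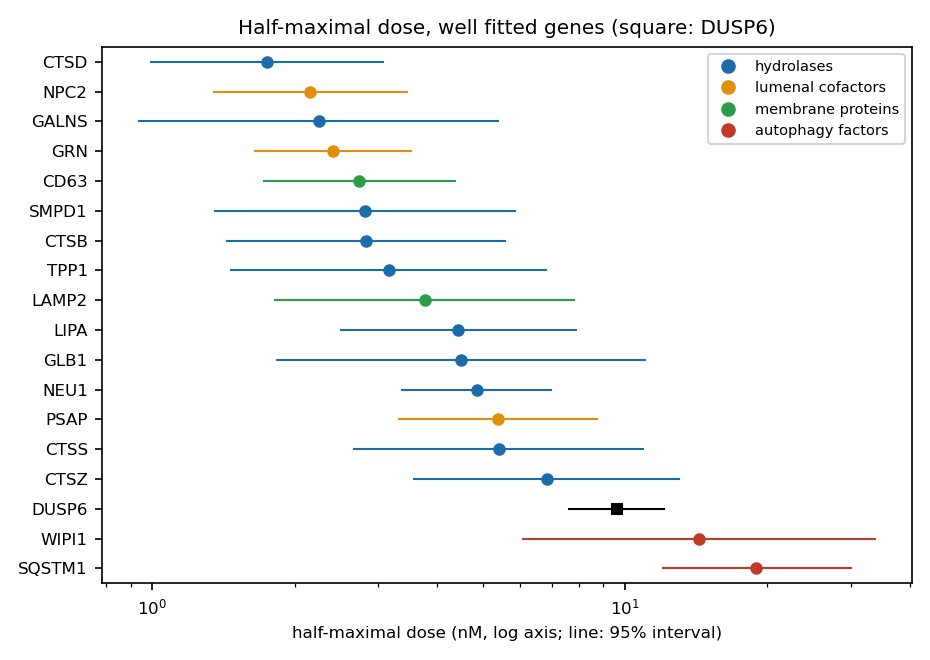
Half-maximal dose in nM (x axis, log scale) with its 95% interval (lines) for the 17 well fitted genes, coloured by class, and for DUSP6 (square). Of these 17, CTSD is lowest at 1.75 nM and the autophagy factors WIPI1 and SQSTM1 are highest at 14.3 and 18.9 nM.

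Related genes outside the 41 were counted at 1000 nM in the same way, and each count is to be read against the 21.2% of all tested genes called higher and the 20.7% called lower. Of 27 tested further hydrolases and their activators, 9 rose and 4 fell, with a median log2 fold change of 0.37. Among those that rose were GM2A, the activator of HEXA, which averaged 82.1 ± 0.229 CPM at 1000 nM and 37.0 ± 1.41 CPM in DMSO (SD, n = 3 libraries and 3 pair means), and FUCA1, a fucosidase (log2 fold change 1.11). SIAE, AGA and DNASE2 fell, by 0.54, 0.64 and 0.39 on the log2 scale. Of 22 further membrane proteins, 9 rose and 2 fell, with a median log2 fold change of 0.08. Those with the lowest adjusted p were LAPTM4A (0.74), CLN3 (0.99) and the sialic acid exporter SLC17A5 (0.73), while the chloride exchanger CLCN7 and TMEM192 both had -0.51.

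Of 15 other V-ATPase subunits 5 were called higher and 2 lower, beside 21.2% and 20.7% of all tested genes, with a median log2 fold change of 0.21. ATP6V0E1, a small subunit of the membrane sector, rose, averaging 484 ± 98.8 CPM at 1000 nM and 160.0 ± 1.19 CPM in DMSO (SD, n = 3 libraries and 3 pair means; log2 fold change 1.60, SE 0.102). ATP6V1D rose by 0.77 on the log2 scale. ATP6V1C2 averaged 4.46 CPM at 1000 nM and 1.20 CPM in DMSO, below the filter of 2.53 CPM, so it could enter the test only through treated libraries, and without it 4 of 14 subunits were called higher. ATP6V0B and ATP6V1G1 fell, by 0.80 and 0.47.

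Of 36 further autophagy genes, 12 rose and 2 fell, beside the same 21.2% and 20.7%, with a median log2 fold change of 0.31. The ATG8 family members MAP1LC3A (log2 fold change 1.85, SE 0.204) and GABARAP (1.22, SE 0.128) and ATG3, the enzyme that attaches them to lipid (0.81, SE 0.109), had the lowest adjusted p among those that rose. The ATG101 gene, listed under its older symbol C12orf44, fell by 0.94 (SE 0.144) and ATG16L1 by 0.61 (SE 0.201). Among 23 genes of nutrient sensing at the lysosome 12 rose and 4 fell, with a median of 0.33. RRAGD, a Rag GTPase, LAMTOR2 and SESN3 rose, by 0.82, 0.78 and 0.83. SESN2, MLST8, a subunit of mTOR complexes, and the mTOR inhibitor DEPTOR fell, by 1.20, 0.91 and 0.99. In the list of 6 genes that sort hydrolases by mannose 6-phosphate or sortilin, 1 rose, SORT1 (0.73), and 1 fell, M6PR (-0.40), a share near that of all tested genes in both directions, and the median was -0.06.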

How the data were processed

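RNA of LoVo cells was reverse transcribed (10 ng per sample), amplified gene by gene and sequenced, per the labels' protocols. The authors deposited whole-number counts per gene, without normalization. Per the submitters' processing notes, reads were placed on hg19. How they were aligned and counted is not given in the sources used here. Series matrix and single files agreed in 36 of 36 libraries. Each file has 20812 rows, of which 10 are spike-in controls with 0 counts. Repeated amplification of a molecule is not corrected in the counts. Standard errors and intervals come from the spread among libraries.

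The 41 genes and the other lists were chosen with earlier results of these data known. Counts were fitted with edgeR 4.0.16 in R 4.3.3: filterByExpr with the 12 groups (at least 2.53 CPM in 3 libraries) kept 12102 genes, TMM scaled the libraries (factors 0.951 to 1.05), and a robust quasi-likelihood model was fitted to the 36 libraries (24 residual degrees of freedom). For a dose, both DMSO groups served as control in turn, and the larger p was adjusted by Benjamini-Hochberg. Fold changes use the average of these groups and the larger SE. DMSO libraries with the same number on both chips shared their deviations (correlations 0.313, 0.157 and 0.278), so DMSO means and SDs use 3 pair means. The labels give the chip for DMSO libraries, not for treated ones.

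Half-maximal doses were fitted by least squares on log2 CPM (prior count 1) as base + top × dose/(dose + half-maximal dose). Values of every library are given, in each class, for the called genes with the largest change at 1000 nM (up to 4 hydrolases, 2 cofactors, 3 in each other class) and for TFEB and TFE3; CTSA, LAMP1, MCOLN1, CD68 and ULK1 were added after their values were seen. Of each related list the 3 called genes with the lowest adjusted p in each direction are named, except for a result that is not reported here. On simulated counts (11953 genes, 50 changed per size), 1000 nM against DMSO recovered 18%, 70%, 98% and 98% of genes changed by 0.5, 1, 2 and 3 on the log2 scale, with 3 false calls. For 1000 against 100 nM these shares were 40%, 80%, 98% and 98%, with 4 false calls. Far fewer genes were changed there than were called at 1000 nM here, so these shares are not the power in these data. Alternatives were DESeq2 1.42.0, other scaling, filters and DMSO references, the replicate number as a block, and leaving out libraries. Python 3.11.15 drew the figures.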

Additional observations from a re-analysis of the deposited data

How the results depend on the processing

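At 1000 nM 22 of the 25 called genes were called in all 20 alternatives, the exceptions being CTSA, ATP6V0A1 and ATP6V0D1, and the count of genes called higher was 23 to 26 when 1 library was left out and 25 to 30 otherwise. Counts at 10, 30, 100 and 300 nM were 17 to 20, 20 to 23, 23 to 24 and 24 to 26 when 1 library was left out, and 18 to 23, 21 to 27, 24 to 28 and 24 to 28 otherwise. Over all genes DESeq2 called 2451 higher and 2436 lower at 1000 nM, and 3400 and 3223 were called against the mean of both DMSO groups.

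The low doses moved more. At 1 nM 6 genes became 13 against the mean of the DMSO groups, 10 against chip 1 alone, 10 with DMSO summed over the chips, and 2 to 5 when 1 library was left out. At 3 nM 8 became 17 against the mean, 13 against chip 1 alone, 13 with only the libraries compared, and 6 to 8 when 1 library was left out. Lower calls appeared at 1 nM (1, TFEB, chip 1 alone), at 3 nM (2, NPC1 and ULK1, against the mean or with DMSO summed; 1 against either chip alone, with only the libraries compared, or without the 3 libraries named next) and at 1000 nM (LAMP1 with no filter, TFEB against chip 1 alone, MCOLN1 without those 3 libraries; 0 to 1 when 1 library was left out). Without 3 libraries together (0.1 nM replicate 2, and replicate 1 of both 1 and 1000 nM), 1 against 0.1 nM had 6 genes higher in place of 11. This set kept replicate 3 of 1000 nM, whose SD of the log2 deviation (0.362) was larger than that of 0.1 nM replicate 2 (0.312). Leaving out 1 library gave 5 to 10 higher and 0 to 1 lower for 1 against 0.1 nM. For 100 against 10 nM, 6 became 2 to 5 when 1 library was left out. The cause of these shifts was not tested.

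GLA and GAA, both near 0, changed sign without a call. GLA had log2 fold changes of -0.009 with no filter, -0.018 with a filter of 1 CPM, -0.002 with DMSO summed, -0.048 without the 3 libraries and -0.053 to 0.12 when 1 library was left out. GAA had 0.006 against chip 2 alone, 0.002 with only the libraries compared and -0.19 to 0.15 when 1 library was left out.

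With the replicate number as a block, 25 genes were called higher at 1000 nM and 6 at 1 nM, as without it. Same-numbered libraries of DMSO and most doses did not deviate together. DMSO chip 1 and 0.3 nM had low positive correlations (0.189, 0.05 and 0.096), and 3 and 300 nM had 0.151, 0.225 and 0.321. The number was not used to pair libraries in the main fit. Half-maximal doses with a prior count of 5 moved by less than their SE in all 17 well fitted genes, as they did with DMSO as 3 pair means, an alternative chosen after seeing the data. Genes under about 10 counts per library, CTSF and MAN2B1 here, could not be tested at this depth.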
